A study of Mus musculus with 16 samples.

Results

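The late response to dihydrotestosterone (DHT) was taken from 4 of the 16 arrays of the series: retroperitoneal fat of gonadectomised mice collected 18 and 24 h after a subcutaneous dose of 0.1 mg DHT, with 1 male and 1 female array at each time. The members were picked by their titles, which give 18h or 24h, GDX+DHT, although earlier results of these data were known when this part was chosen. They were compared with the 4 arrays titled Control, GDX+vehicle, of which 2 were male and 2 female, and then with the same arrays without male vehicle replicate 2, whose skeletal muscle content is described below. The 4 arrays at 6 and 12 h and the 4 at 1 and 3 h after DHT served as further comparisons in which no vehicle array enters. The labels of the vehicle samples give a time of 24 h before necropsy. All groups share the gonadectomy, so none of them holds intact animals, and the strain and age are not given in the sources used here. The labels' protocols describe 1 collection of fat per group, so each array may stand for several pooled animals. Whether the vehicle replicates were separate animals is not stated, and the p-values cover the spread of these samples only, which may be technical. The 18 and 24 h arrays were taken as 1 late group, so this spread also holds the difference between the late times. It is not a spread of replicates alone.

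DHT is the potent androgen that tissues form from testosterone. It binds the androgen receptor, a nuclear receptor that is held by chaperones in the cytoplasm, moves to the nucleus when bound and acts at response elements which it largely shares with the glucocorticoid receptor. Genes read directly from such elements respond within hours, and the products of these genes can act on further genes later. In fat, androgens are known for effects on lipid storage, lipolysis and the formation of new adipocytes.

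The 4 late arrays carried the defining genes of fat. The mean log2 level of 16 adipocyte markers lay between 12.40 and 13.09 on them and between 12.43 and 12.95 on 3 of the vehicle arrays, and Adipoq (adiponectin) had signals from 25081 to 28657 on the late arrays. Male vehicle replicate 2 stood apart, with an adipocyte level of 10.11, a level of 12.89 for 34 skeletal muscle markers against 8.88 to 9.73 on the late arrays, and a Ckm (muscle creatine kinase) signal of 14551 against 269.1 to 666.3. Its correlations with the other arrays over all genes ran from 0.606 to 0.701. The level of 24 macrophage markers was 8.36 on it and 9.83 to 10.74 on the late arrays. Among the comparison arrays, female 12 h carried exocrine pancreas markers at a mean log2 level of 12.66, against 8.19 to 9.05 on the late arrays. The mean log2 signal of 6 antisense control probe sets was 8.84 to 9.96 on the late arrays and 7.64 to 9.14 on the vehicle arrays. It was 9.28 on the male 3 h array, 6.38 to 6.75 on the other 1 and 3 h arrays, and 6.61 to 8.92 on the 6 and 12 h arrays. The part of this level in the results was not tested beyond a fit with it as a covariate.

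The first question was which messenger RNAs still differed from vehicle 18 to 24 h after the hormone. The 6 higher genes with the smallest p with 7 arrays were Mt2, Fkbp5, Lrg1, Ucp1, Inmt and Hp. Mt2 encodes a zinc-binding metallothionein and Fkbp5 a co-chaperone of steroid receptors, and both are known androgen or glucocorticoid targets. Lrg1 and Hp encode secreted acute phase proteins, Inmt an enzyme that methylates indolamines and Ucp1 the uncoupling protein of brown fat. The metallothionein gene Mt1, not among these 6, is given beside Mt2. No gene of the 5686 tested passed the threshold of 0.05 for the adjusted p in limma with 8 arrays (0% called), where 98 genes had an unadjusted p under 0.05 and Mt2 had the smallest adjusted p, 0.909. Without male vehicle replicate 2, again 0% were called by limma, 148 genes had an unadjusted p under 0.05, and Mt2 had the smallest adjusted p, 0.104. Differences below are log2 differences of signal + 16 with the standard error of the fit. They are given for the 7 arrays unless 8 are named, since the muscle-rich array alone moves many of the 8-array values.

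Mt2 had signals of 5617 and 4805 on the male arrays at 18 and 24 h and of 5155 and 3374 on the female ones. On the vehicle arrays Mt2 read 1945 and 987.5 in males and 1436 and 1642 in females. Every late array was therefore above every vehicle array, including the muscle-rich one. The log2 difference of Mt2 was 1.42 ± 0.18 (SE) with 7 arrays, or 2.68-fold, and 1.66 ± 0.28 with 8. Mt1 followed it at a lower size: 5388 and 4827 in late males and 4039 and 3071 in late females, against 2526 and 284.7 in vehicle males and 2536 and 1429 in vehicle females. The Mt1 difference was 0.93 ± 0.21 (limma adjusted p = 0.942) with 7 arrays, and 1.72 ± 0.64 with 8, the larger value resting on the low signal of the muscle-rich array. Fkbp5 had 2096 and 1606 in late males, 1574 and 1102 in late females, 713.8 and 906.7 in vehicle males and 332.0 and 551.7 in vehicle females. Its groups did not overlap, and the difference was 1.49 ± 0.23 (limma adjusted p = 0.299), or 2.80-fold.

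When all arrays except the muscle-rich one were fitted together with sex and time as factors, the spread was estimated over 15 arrays. Each DHT time has a single array per sex, so this spread mainly holds how the sexes differ from time to time. In that limma fit 5 genes passed, 0.0879% of those tested, and all 5 were higher in the late arrays: Mt2 (log2 1.43, adjusted p = 0.00885), Fkbp5 (1.52, adjusted p = 0.00885), Lrg1 (0.93, adjusted p = 0.00885), Hp (0.65, adjusted p = 0.0271) and Inmt (1.58, adjusted p = 0.0476). With the muscle-rich array included, all 16 arrays gave 0 calls, 230 genes at an unadjusted p under 0.05 and a smallest limma adjusted p of 0.0820, for Mt2. With arrays weighted by their fit, limma called 2 genes with 8 arrays, Mt2 and Fkbp5, and 61 with 7, where the lone male vehicle array carried a weight of 9.86.

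**Figure D1:**
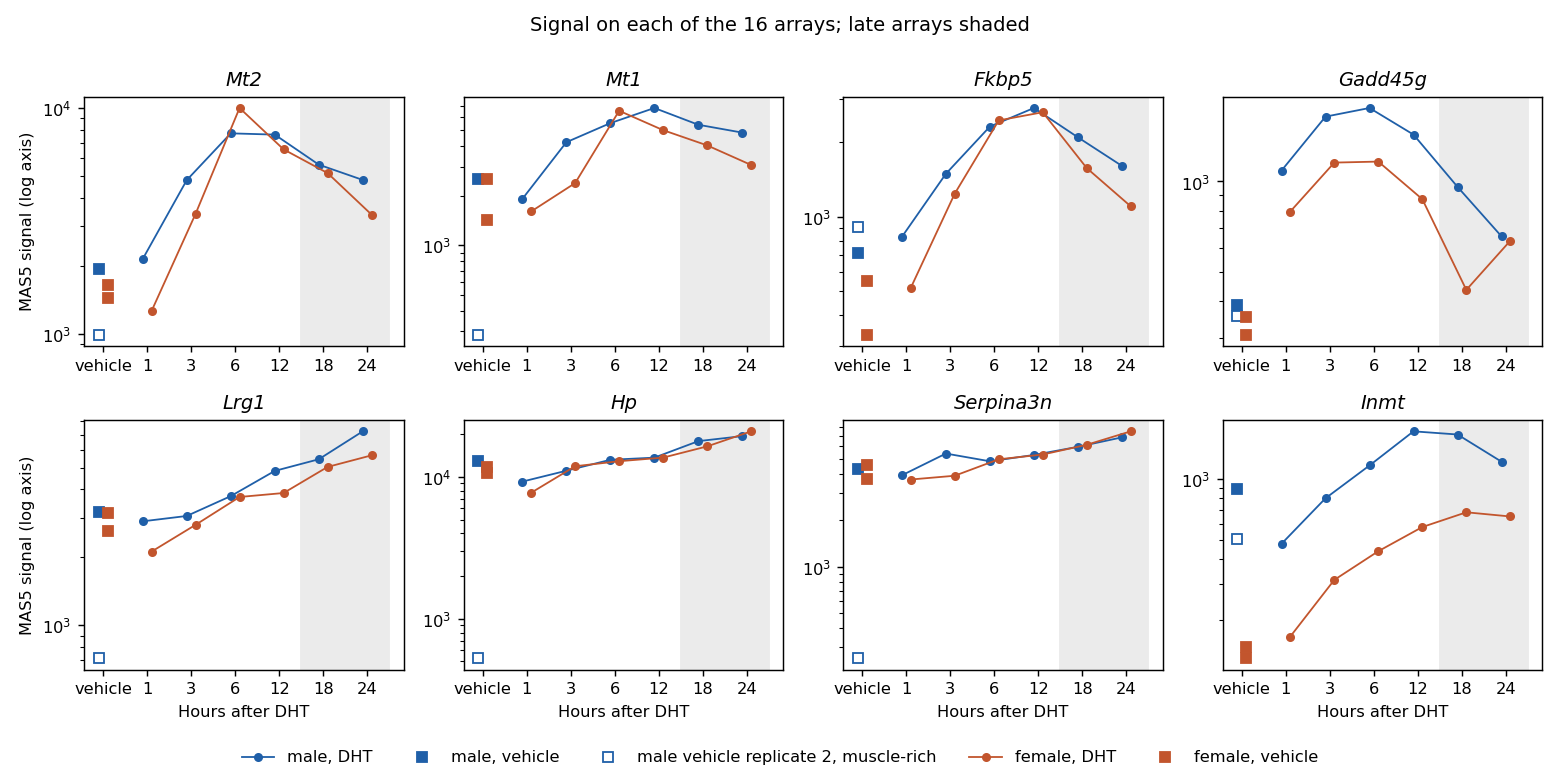
MAS5 signal (log axis) of 8 genes on each of the 16 arrays: squares at the left are vehicle arrays, the open square male vehicle replicate 2, and circles the DHT arrays by hours after the dose, blue for males and orange for females. In the shaded late arrays Mt2, Mt1, Fkbp5 and Gadd45g are below their signals at 6 h, whereas Lrg1, Hp and Serpina3n have their highest signals at 24 h in both sexes.

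The sequences upstream of 4 of these genes are shown because metallothioneins and Fkbp5 are textbook hormone targets and Lrg1 represents the genes that were highest late. Of 7 genes looked for in the RefSeq promoter table (GRCm38.p6), 6 matched, and the 250 bases before the start are printed 5′ to 3′. Capitals mark matches on either strand to AGAACA (the hexamer of androgen and glucocorticoid response elements), to TGCNCNC or to TTGCNNAA. TGCNCNC is looser than the core of metal response elements, which has adenine or guanine at the first open position. TTGCNNAA is a loose C/EBP pattern and not a palindrome. The capitals do not mark proven sites.
Mt2, chr8:94172368-94172617, plus strand: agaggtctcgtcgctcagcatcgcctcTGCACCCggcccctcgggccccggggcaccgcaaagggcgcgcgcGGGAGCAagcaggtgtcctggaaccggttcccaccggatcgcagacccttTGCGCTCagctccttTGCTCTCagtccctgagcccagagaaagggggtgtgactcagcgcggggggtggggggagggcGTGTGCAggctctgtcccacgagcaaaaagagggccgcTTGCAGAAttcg
Mt1, chr8:94178839-94179088, plus strand: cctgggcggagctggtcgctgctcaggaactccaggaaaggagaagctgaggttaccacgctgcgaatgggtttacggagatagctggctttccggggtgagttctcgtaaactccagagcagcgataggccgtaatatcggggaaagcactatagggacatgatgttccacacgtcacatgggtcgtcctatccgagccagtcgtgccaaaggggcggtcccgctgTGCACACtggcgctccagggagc
Fkbp5, chr17:28486150-28486399, minus strand: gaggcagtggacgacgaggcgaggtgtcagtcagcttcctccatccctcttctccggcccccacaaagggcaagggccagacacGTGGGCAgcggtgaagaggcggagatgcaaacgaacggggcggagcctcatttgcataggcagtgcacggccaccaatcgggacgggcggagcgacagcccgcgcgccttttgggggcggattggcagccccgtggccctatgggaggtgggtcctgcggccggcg
Lrg1, chr17:56121947-56122196, minus strand: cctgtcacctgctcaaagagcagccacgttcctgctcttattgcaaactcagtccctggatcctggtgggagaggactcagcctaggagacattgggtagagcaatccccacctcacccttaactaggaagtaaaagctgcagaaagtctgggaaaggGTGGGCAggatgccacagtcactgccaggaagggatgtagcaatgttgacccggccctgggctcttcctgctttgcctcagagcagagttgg
Mt2 held 5 matches to TGCNCNC and 1 to TTGCNNAA, and 0.344% of the 32851 promoters in the table hold at least 5 of the first. Mt1, Fkbp5 and Lrg1 each held 1 match to TGCNCNC, and 44.4% of promoters hold at least 1. The matches of Fkbp5 and Lrg1, and some of those of Mt2, do not meet the stricter core of metal response elements. AGAACA was found in none of these 4 windows, although 16.1% of promoters contain it, and a TTGCNNAA match was present in 9.56% of promoters. Serpina3n had 1 match to AGAACA in the same window, and Inmt had 2 to TGCNCNC. No match says only that these letters are not in this window.

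Known targets of hormone response elements were next counted as a list. Because no gene passed in those fits, a count rule without a test was used: a gene was counted when, in each sex, all late arrays lay above, or all below, all vehicle arrays. With 8 arrays, 168 genes (2.95%) were higher and 112 (1.97%) lower by this rule, and with 7 arrays, which is easier to meet, 253 (4.45%) were higher and 252 (4.43%) lower. Of 30 list members tested, 8 were higher (26.7%) and 0 lower under both rules: Mt2, Mt1, Fkbp5, Gadd45g, Errfi1, Cdkn1a, Hsd11b1 and Id3. The list was drawn up with earlier results of these arrays known, so its count is not independent evidence of its direction. The median difference of the 30 was 0.16 with 8 arrays and 0.18 with 7, against medians over all genes of 0.04 and -0.002. None of the 30 passed in the unweighted limma fits with 7 or 8 arrays, and Mt2 and Fkbp5 did so with 15.

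Beside the metallothioneins and Fkbp5, the members of this list differed in size. Gadd45g, a stress-induced growth arrest gene, read 959.6 and 656.1 in late males, 435.1 and 634.7 in late females, and 307.5 to 386.3 on the 4 vehicle arrays, a difference of 0.79 ± 0.22. Cdkn1a, which encodes the cell cycle inhibitor p21, had 754.6 and 662.6 in late males, 785.4 and 424.5 in late females and at most 421.0 on the vehicle arrays, a difference of 0.69 ± 0.23, but its other probe set gave only 0.09 ± 0.38. Errfi1, a feedback inhibitor of the epidermal growth factor receptor, differed by 0.36 ± 0.17, and its other probe set by 0.75 ± 0.20. Hsd11b1, which regenerates active glucocorticoid inside cells, had 1661 and 1632 in late males and 566.5 and 809.0 in late females, against 1200 and 241.3, and 405.4 and 376.5, in the vehicle arrays. Id3, an inhibitor of basic helix-loop-helix factors, had the smallest difference among the 8, 0.22 ± 0.15. Other well-known members did not meet the count rule: Per1 at 0.19 ± 0.33, Sgk1 at -0.03 ± 0.19, Klf9 at 0.08 ± 0.20, Zbtb16 at 0.34 ± 0.23 and Cebpd at 0.33 ± 0.18. The differences of Zbtb16 and Cebpd were nevertheless larger than that of Id3. Cebpd overlapped in males only, with 849.4 on the 24 h array against 852.2 on male vehicle replicate 1.

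Acute phase genes, which the liver and fat secrete under inflammatory and glucocorticoid signals, formed another group with members that were higher late. Of 23 tested, 5 were higher in each sex (21.7%, against 2.95% of all genes with 8 arrays and 4.45% with 7) and 0 lower with either set: Lrg1, Hp, Serpina3n, Saa2 and Ccl2. Lrg1 read 5441 and 7235 in late males and 5032 and 5663 in late females, against 3162 and 713.9 in vehicle males and 2615 and 3136 in vehicle females. Its difference was 0.93 ± 0.15 (limma adjusted p = 0.319) with 7 arrays and 1.47 ± 0.46 with 8. Hp (haptoglobin, which binds free haemoglobin) read 17907 and 19426 in late males and 16444 and 20997 in late females, against 12921, 11775 and 10712 on the 3 vehicle arrays other than the muscle-rich one, where it read 525.2. That single low array raised the Hp difference from 0.65 ± 0.13 with 7 arrays to 1.77 ± 0.88 with 8. Serpina3n, a serine protease inhibitor, read 5968 to 7519 late and 3679 to 4576 on those 3 arrays, with a difference of 0.67 ± 0.15 (limma adjusted p = 0.942). The median over the 23 genes was 0.40 with 8 arrays and 0.10 with 7, with a list level of 8.05 on the muscle-rich array and 9.44 to 9.92 on the late arrays. Orm1 (-0.07 ± 0.23), Saa3 (-0.09 ± 0.18) and Lcn2 (0.10 ± 0.26) lay near vehicle. Beside this list, 24 macrophage markers had a median difference of 0.04, and 1 of them was higher in each sex.

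Enzymes of drug and xenobiotic metabolism, many of which also handle steroids and retinoids, gave the third group. Of 43 tested, 8 were higher with either set of arrays (18.6%, against 2.95% and 4.45% of all genes): Inmt, Gsta3, Aldh1a1, Cyp2e1, Fmo1, Cyp1a1, Gsr and Aox1. Lower were 1 with 8 arrays (2.33%), Mgst3, and 4 with 7 (9.30%): Mgst3, Ephx1, Ephx2 and Sult1a1, where all genes gave 1.97% and 4.43%. The median of the list with 7 arrays was 0.01. Inmt read 1655 and 1214 in late males and 682.1 and 650.3 in late females, against 890.6 and 501.3 in vehicle males and 146.4 and 129.0 in vehicle females. Male arrays were above female arrays at every matched time, and the difference of 1.56 ± 0.30 (limma adjusted p = 0.596) averages 0.66 in males and 2.15 in females. Gsta3, a glutathione transferase, read 656.9 and 568.3 in late males and 454.2 and 528.4 in late females, against 389.8, 256.0 and 254.1 on the 3 vehicle arrays, a difference of 0.79 ± 0.18. Aldh1a1, which makes retinoic acid, read 3079 to 3766 late and 2060 to 3081 on the vehicle arrays, a difference of 0.52 ± 0.14, whereas its dim second probe set gave -0.02 ± 0.31.

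**Figure D2:**
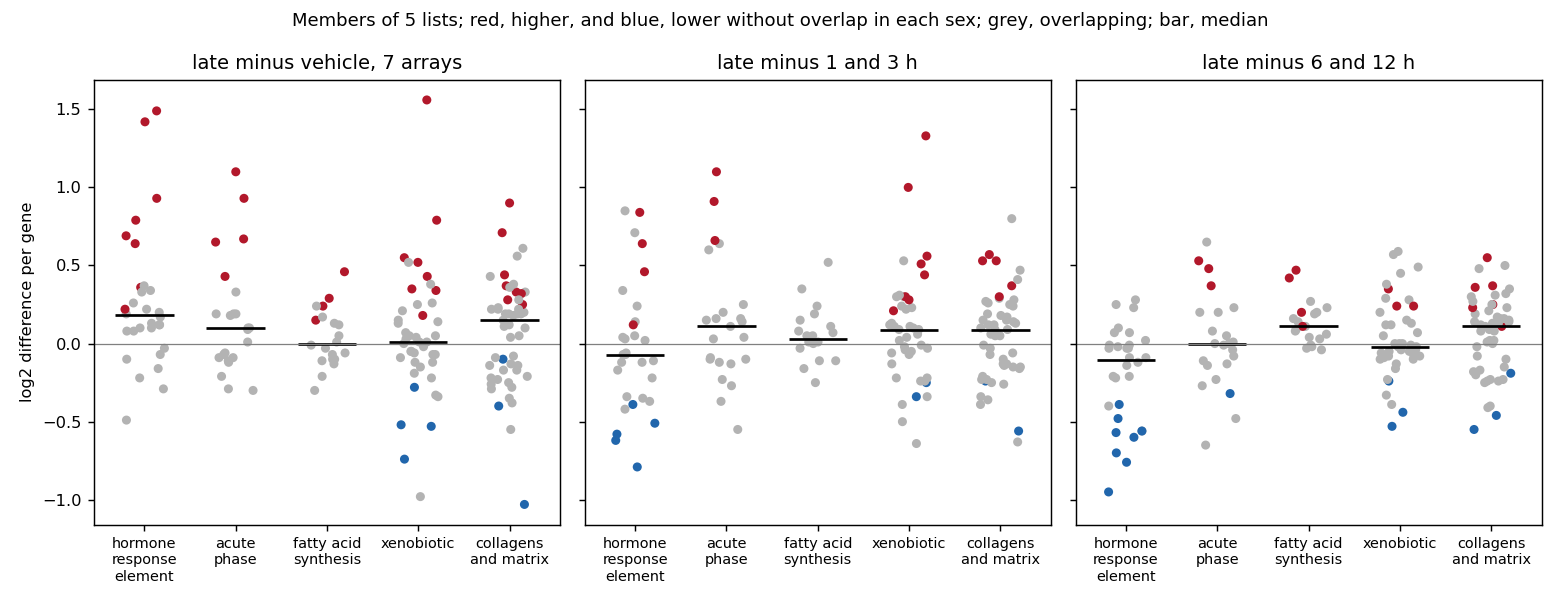
Log2 difference of each tested member of 5 lists: late minus vehicle with 7 arrays (left), late minus 1 and 3 h (middle) and late minus 6 and 12 h (right). Red and blue points are genes whose late arrays lay above or below the comparison arrays in each sex, grey points overlapped, and bars are medians; the hormone response element list has 8 red points at left and 8 blue points at right.

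Genes of lipid synthesis were higher mainly where the muscle-rich array was kept. The median over 20 fatty acid synthesis and NADPH genes was 0.70 with 8 arrays and 0.00 with 7, and that over 16 adipocyte markers 0.75 and 0.09. In the same lists the muscle-rich array had levels of 9.50 and 10.11, against at least 11.88 and 12.40 on the late arrays. Members higher in each sex numbered 4 of 20 (20.0%, against 4.45% of all genes with 7 arrays): Fasn (fatty acid synthase), Scd1 and Scd2 (desaturases) and Pgd (an NADPH-forming enzyme), with 7-array differences of 0.24 ± 0.14, 0.46 ± 0.19, 0.29 ± 0.13 and 0.15 ± 0.14. Scd1 read 46406 and 48109 in late males and 50350 and 48147 in late females, against 42886, 40527 and 23284 on the 3 vehicle arrays. Its groups barely separated in males, and the female vehicle arrays themselves differed by more than the late arrays did. Of 15 lipolysis genes 1 was higher in each sex (6.67%, near the 4.45% of all genes with 7 arrays): Npr3, the clearance receptor for lipolytic natriuretic peptides. Npr3 had 2329 and 2718 in late males against 1720 in male vehicle replicate 1, and 1523 and 1330 in late females against 630.2 and 735.8, a difference of 0.85 ± 0.18 (limma adjusted p = 0.723). The hormone-sensitive lipase gene Lipe (-0.07 ± 0.16) and Pnpla2 (-0.03 ± 0.10) lay at vehicle level.

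Ucp1, the uncoupling protein of brown and beige adipocytes, had low signals that were higher late: 980.0 and 707.6 in males and 173.8 and 119.0 in females, against 350.0 and 35.76 in vehicle males and 41.62 and 51.90 in vehicle females. The difference was 1.30 ± 0.24 (limma adjusted p = 0.596) with 7 arrays, 1.99 ± 0.58 with 8, and 0.26 ± 0.39 by a second, dimmer probe set. On the 1 h male array Ucp1 read 1422, above both late male arrays, and on the 3 h female array 366.6, above both late female arrays. Of the 7 members of the brown and beige list tested, 2 were higher in each sex with 7 arrays (28.6%, against 4.45% of all genes), Ucp1 and Cox7a1, and with 8 arrays Ucp1 alone. Cox7a1, a respiratory chain subunit of muscle and brown fat, had 188.0 and 140.3 in late males and 98.14 and 104.7 in late females, against 118.5, and 84.32 and 76.88, on the 3 vehicle arrays, a difference of 0.33 ± 0.27. It read 3144 on the muscle-rich array and its 8-array difference was -0.79 ± 0.89. Cidea was at 0.10 ± 0.23, Fabp3 at 0.19 ± 0.32, Cox8b at -0.01 ± 0.17, Ucp3 at -0.25 ± 0.18 and Ebf2 at -0.34 ± 0.23, and the list's median was 0.10.

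Collagens and matrix genes, made mainly by fibroblasts and preadipocytes, were the fourth group. With 8 arrays 7 of 51 were higher (13.7%) and 1 lower (1.96%); with 7 arrays 8 were higher (15.7%) and 3 lower (5.88%). All genes gave 2.95% and 1.97% with 8 arrays and 4.45% and 4.43% with 7, so the lower shares lay near the background. Col8a1, a short-chain collagen, had 252.6 and 249.5 in late males and 624.0 and 407.6 in late females, against 132.4 and 198.4, and 290.8 and 224.1, in vehicle, a difference of 0.90 ± 0.22 that did not rest on the muscle-rich array (0.76 ± 0.24 with 8). Sparc, a collagen-binding matrix protein, had 5991 and 7560 in late males and 13719 and 12125 in late females, against 5231 and 2494, and 8036 and 10350, in vehicle, a difference of 0.44 ± 0.15. Col4a1, Col5a2, Col3a1, Lamb2 and Bgn were the other higher members with both sets of arrays, by 0.25 to 0.37 with 7, and Tnc was higher only with 7. Fmod (fibromodulin, which shapes collagen fibrils) was lower, with 139.7 and 85.13 in late males and 123.3 and 236.6 in late females against 185.9 and 4618, and 393.0 and 480.8, in vehicle. Its difference was -1.03 ± 0.30, and -2.11 ± 0.86 with the muscle-rich array, where it read 4618; a dim second probe set gave 0.10 ± 0.37 with 7 arrays. Fibroblast and preadipocyte markers, which share several of these genes, had a median of 0.13 over 15 genes with both sets of arrays.

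Fewer genes were lower with a small p, and several of them were dim. With 7 arrays the 6 with the smallest p were Irf4, Cd99, Cacng1, Fmod, Pklr and Dnm1. Irf4, a transcription factor of lymphoid, myeloid and fat cells, had 21.11 and 40.68 in late females and 166.5 and 167.1 in late males, against 151.2 and 182.9 in vehicle females and 235.7 and 19.82 in vehicle males, a difference of -1.38 ± 0.38 (limma adjusted p = 1.00). With the muscle-rich array the groups overlapped in males and the Irf4 difference was -0.52 ± 0.74. Cd99, a surface glycoprotein, read 2085 to 2923 late and 2934 to 4830 on the 3 vehicle arrays, but 2185 on the muscle-rich one. Pklr (pyruvate kinase of liver and red cells) differed by -1.32 ± 0.38, while a second, dim probe set gave 0.49 ± 0.51. Cacng1, a calcium channel subunit of skeletal muscle, read 26.86 to 100.6 late, 142.3 to 294.6 on the 3 vehicle arrays and 5917 on the muscle-rich one. The muscle marker level was 10.09 on male vehicle replicate 1 and 9.44 and 9.73 in late males. In females that level was 9.14 and 9.15 on vehicle and 8.88 and 9.53 late, where Cacng1 read 143.7 and 142.3, and 26.86 and 98.21. With the muscle marker level as a covariate the 7-array difference of Cacng1 was -1.10, against -1.40 without it. The part of muscle content in this difference was not tested beyond that fit. With 8 arrays the lower genes with the smallest p were Rrm1, Dmwd, Rnps1, Apod, Psmd11 and Stk11ip, from -1.51 ± 0.48 for Rrm1, a ribonucleotide reductase subunit, to -0.82 ± 0.27 for Rnps1, a splicing factor. All had a limma adjusted p of 0.909. Other probe sets of Psmd11 gave 0.57 and -0.47 with 8 arrays, against -0.85 for the one tested, and a dim one of Rrm1 gave -0.07. Higher there, beside genes already described, were Il1r2, the decoy receptor for interleukin 1 (1.09 ± 0.29, and 0.97 ± 0.26 by its second probe set with 7 arrays), and Rnf20 (1.15 ± 0.31), for which another probe set gave 0.16 ± 0.29 with 7 arrays.

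Against the 6 and 12 h arrays the question was which differences were still growing late and which had passed their maximum. No gene of 5686 passed in limma (0% called; 234 at an unadjusted p under 0.05; smallest adjusted p 0.333, for Pcp2). By the count rule 154 genes (2.71%) were higher and 175 (3.08%) lower in the late arrays of each sex. Of the hormone response element list 8 of 30 were lower (26.7%) and 0 higher: Mt2, Mt1, Fkbp5, Gadd45g, Errfi1, Cebpd, Zbtb16 and Ddit4. Mt2 had read 7729 and 7629 in males and 10010 and 6565 in females at 6 and 12 h, so that its late signals were lower by 0.76 ± 0.18 (limma adjusted p = 0.724) and yet above vehicle. Fkbp5 had read 2318 and 2755 in males and 2454 and 2648 in females, and was lower late by 0.70 ± 0.17. Gadd45g had the largest such difference of the list, -0.95 ± 0.18, from 1758 and 1433 in males and 1165 and 872.9 in females. Errfi1 was lower by 0.57 ± 0.13, and Slc3a2, the heavy chain of amino acid transporters and no member of the list, by 0.53 ± 0.11.

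A few acute phase and lipid synthesis genes were higher late than at 6 and 12 h, with list medians of -0.003 and 0.11. Here 2.71% of all genes were higher and 3.08% lower. Higher shares were not particular to these lists. Of 15 fibroblast and preadipocyte markers 5 were higher (33.3%), and of 22 cytosolic ribosomal genes 5 (22.7%), with 0 lower in either. Of 23 acute phase genes 3 were higher (13.0%), Lrg1, Hp and Serpina3n, and 1 was lower (4.35%), Il4ra. Lrg1 had read 3737 and 4832 in males and 3704 and 3857 in females at 6 and 12 h, a late difference of 0.53 ± 0.13 (limma adjusted p = 0.724). Hp had read 12924 to 13703 on those 4 arrays and was higher late by 0.48 ± 0.09. Of 20 fatty acid synthesis genes 4 were higher (20.0%) and 0 lower: Scd1 by 0.47 ± 0.08, Fasn by 0.42 ± 0.09, and Thrsp and Srebf1, regulators of lipid synthesis, by 0.20 and 0.11. Scd1 had read 32412 to 38744 at 6 and 12 h, below all late arrays, although the male 3 h array had reached 52415. Car3, an abundant adipocyte carbonic anhydrase, was higher late by 0.41 ± 0.09 and Tuba1c by 0.38 ± 0.08. These sizes depended on the processing. Over the alternatives Scd1 ranged from 0 to 0.62, Fasn from 0.22 to 0.49, Car3 from 0.08 to 0.48 and Tuba1c from 0.19 to 0.42. Of the 16 adipocyte markers 4 were higher (25.0%) and 0 lower than at 6 and 12 h. The pancreas-rich female 12 h array lies in this comparison. Without it limma called 1 gene, Pcp2, a Purkinje cell gene that read 541.5 to 731.5 late and 185.2 to 340.8 at 6 and 12 h, but 147.2 to 1050 on the vehicle arrays.

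Against the 1 and 3 h arrays the acute phase genes Lrg1 and Hp and the enzymes Gsta3 and Inmt were among the higher genes of smallest p. No gene passed in limma (0% called; 302 at an unadjusted p under 0.05), but 27 did without the male 3 h array. Lrg1 came nearest, with a difference of 1.10 ± 0.14 and a limma adjusted p of 0.0588. Lrg1 had read 2122 to 3052 at 1 and 3 h, near the 2615 to 3162 of the 3 vehicle arrays. By the count rule 141 genes (2.48%) were higher and 204 (3.59%) lower. Higher with the smallest p after Lrg1 were Gsta3 (1.00 ± 0.16), Hp (0.91 ± 0.15), Inmt (1.33 ± 0.23), Aldh1a1 (0.56 ± 0.11) and Gas1 (0.54 ± 0.12), a growth arrest gene. Of the 43 xenobiotic genes 8 were higher (18.6%) and 2 lower (4.65%). Of the hormone response element list 4 of 30 were higher (13.3%), Mt1, Hsd11b1, Id3 and Ndrg1, and 5 lower (16.7%), Gadd45g, Errfi1, Zbtb16, Cebpd and Cebpb. Cebpd and Cebpb encode factors that start adipocyte differentiation; Cebpd read 849.4 to 1084 late and 1285 to 1659 at 1 and 3 h, with 666.4 to 852.2 in vehicle. Gpd1, glycerol-3-phosphate dehydrogenase, was lower by 0.58 ± 0.13, reading 12507 and 13376 in late males and 7073 and 9766 in late females after 17244 and 18733, and 13142 and 13697. Irf4 was lower by 2.19 ± 0.47, having read 414.0 and 255.2 in males and 424.4 and 584.4 in females at 1 and 3 h. Those signals lay above both vehicle arrays of the same sex, in males and in females. The vehicle, early and late comparisons share the 4 late arrays, so these values stand side by side and do not support each other.

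Between the late times themselves no gene passed. With the spread estimated over all 12 DHT arrays, limma called 0 genes at 24 against 18 h (0% called), 522 had an unadjusted p under 0.05, and the smallest adjusted p was 0.220, for Nup107. Nup107, a nuclear pore subunit, read 461.6 and 406.4 at 24 h and 73.95 and 142.6 at 18 h, a difference of 1.91 ± 0.28. The 18 h arrays were the low ones, since the earlier DHT arrays read 209.6 to 459.5. Lgmn, a lysosomal protease, had the reverse shape, with 1031 and 1873 at 24 h, each the highest of its sex, and 567.6 and 986.4 at 18 h, a difference of 0.88 ± 0.19. The lower genes with the smallest p, Chrne, Clip3, Rag1 and Crx, are known from muscle, nerve, lymphoid and eye cells and had signals of 74.53 to 352.7 at 24 h and 257.0 to 1283 at 18 h. Among the genes of the late response, Mt2 differed by -0.42 ± 0.23, Fkbp5 by -0.44 ± 0.20, Cdkn1a by -0.52 ± 0.21, Lrg1 by 0.29 ± 0.15 and Hp by 0.24 ± 0.12 between 24 and 18 h, none past the limma threshold. Without the male 18 h array limma called 3 genes, Ctcf, Dlgap4 and Pam16, and without the male 24 h array 1, Chrne.

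Males and females were compared last. Limma's interaction term called 0 of 5686 genes (0% called; 78 at an unadjusted p under 0.05; smallest adjusted p 1.00), with 1 male vehicle array in the fit. Across the 5686 genes, which are not independent replicates, the male and female late differences had a Pearson r of 0.035 and 52.4% had the same sign. The leading genes had differences of like size in each sex: Mt2 differed by 1.41 in males and 1.43 in females, Fkbp5 by 1.34 and 1.59, Lrg1 by 0.98 and 0.90, Ucp1 by 1.21 and 1.36 and Hp by 0.53 and 0.73. These genes were picked for a difference in both sexes, so this likeness is a description. Inmt had the larger difference in females, with an interaction of 1.49 ± 0.41, and Saa2, a serum amyloid A, the larger in males, with -1.89 ± 0.47; neither passed (limma adjusted p = 1.00). Saa2 read 222.9 and 244.5 in late males against 36.96 and 98.06 in vehicle males, and 413.9 and 329.8 against 274.0 and 299.6 in females. Its second probe set gave a 7-array late difference of 0.65 ± 0.42 over both sexes, against 1.10 for the one used.

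**Figure D3:**
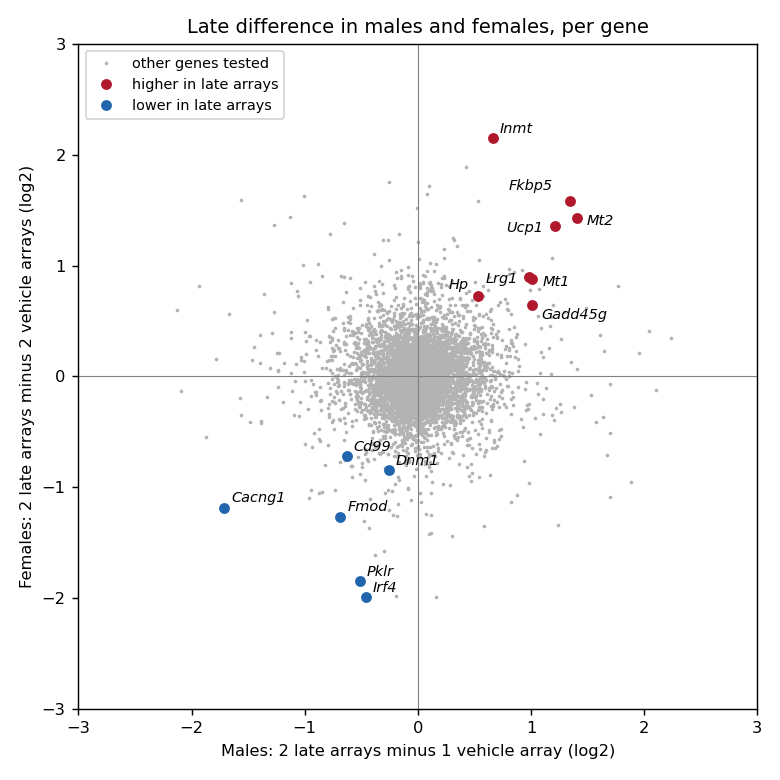
Late difference of each of the 5686 tested genes in males (x axis: 2 late arrays minus male vehicle replicate 1, log2) and in females (y axis: 2 late arrays minus 2 vehicle arrays, log2). Grey points are the genes not singled out and spread around 0 with r = 0.035; red and blue points are named genes higher or lower in the late arrays; Mt2 (1.41 and 1.43) and Fkbp5 (1.34 and 1.59) lie far out on both axes.

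The choice of vehicle arrays set the medians of several lists. Without male vehicle replicate 2 the median of the 34 skeletal muscle markers went from -0.85 to -0.21, of 52 oxidative phosphorylation genes from -0.21 to -0.01, of 20 glycolysis genes from -0.38 to -0.07 and of 37 interferon and antigen presentation genes from 0.41 to -0.08. Macrophage markers went from 0.45, with 24 of 24 positive, to 0.04, with 15 of 24 positive. The hormone response element list (0.16 and 0.18), B cell markers (0.23 and 0.26) and cytosolic ribosomal genes (0.04 and 0.05) had much the same median either way. In bulk tissue a lower share of a cell type and less RNA per cell cannot be told apart, which applies to each of these marker levels.

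**Figure D4:**
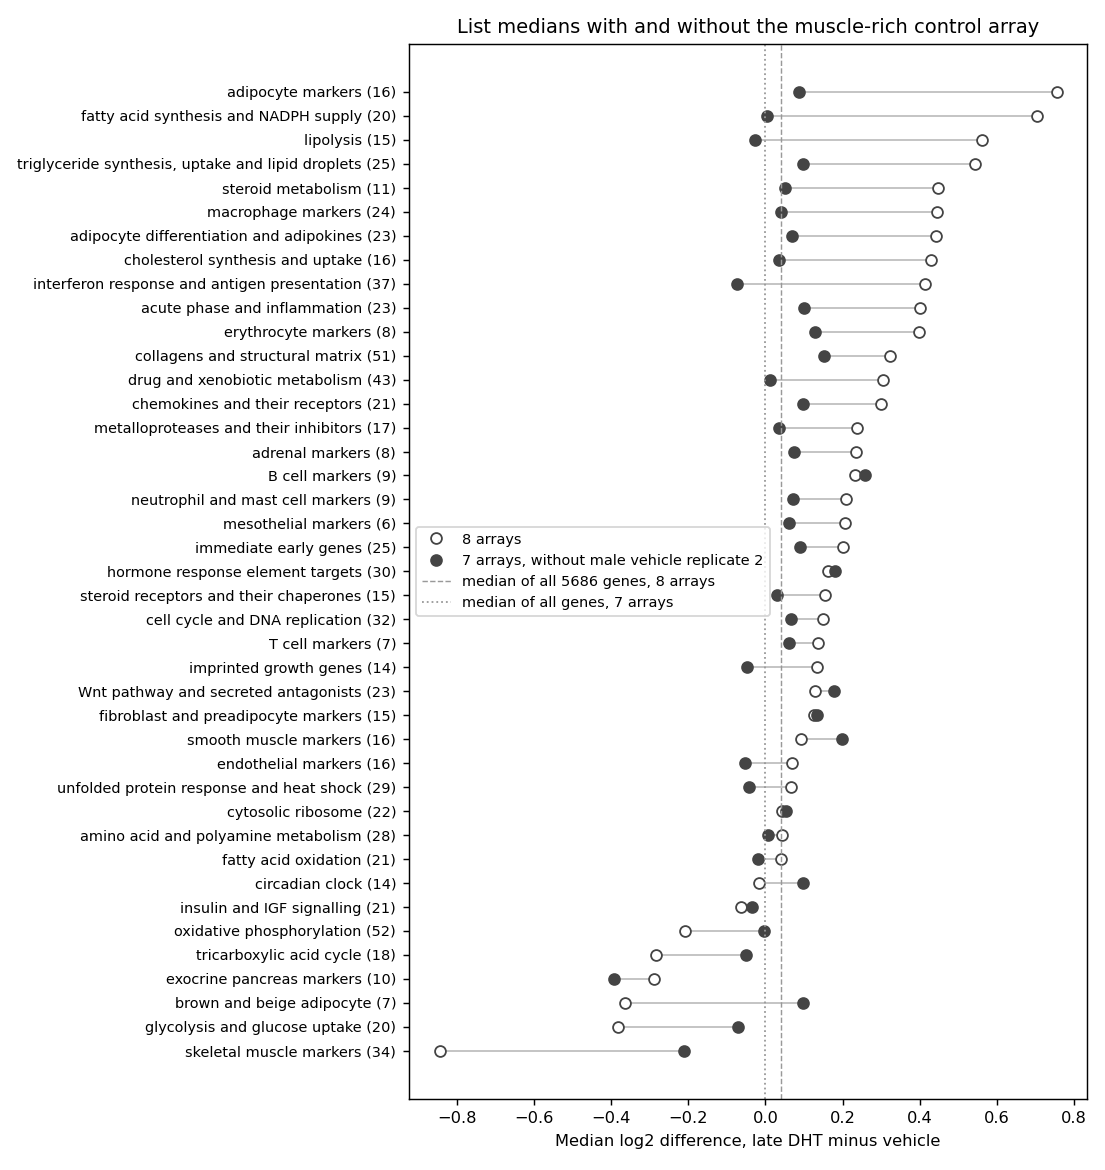
Median log2 difference, late DHT minus vehicle, over the tested members of each list (number in parentheses): open circles with 8 arrays, filled circles with 7, and vertical lines for the medians of all genes. Leaving out the muscle-rich array draws the adipocyte, lipid, macrophage and muscle lists toward 0, and the hormone response element list stays at 0.16 to 0.18.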

How the data were processed

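The deposited values are linear signal intensities of 12488 probe sets, as the authors deposited them; the submitters' processing notes name MAS5, without a version. All arrays had a mean of 500 after trimming 2% at each end, so levels are relative to the array, and median signals were 184.1 to 219.5. The number of arrays limits the precision. Of 11251 annotated probe sets 10855 had 1 gene symbol and 396 several, which named no gene; 66 controls and 1237 probe sets not listed were unnamed here.

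The probe set of highest mean log2 signal stood for each of 8251 genes, and 5686 genes above the 40th percentile (signal 116.03) were tested. limma 3.58.1 (R 4.3.3; lmFit, eBayes with trend, two-sided, Benjamini-Hochberg over all 5686) was fitted to log2(signal + 16), which understates changes of dim genes, with sex as covariate and 5 (8 arrays) or 4 (7 arrays) residual degrees of freedom. The same fit compared late with 6 and 12 h and with 1 and 3 h; 24 against 18 h used time as a factor over 12 arrays, and the sex difference an interaction term. Replicate numbers are in accession order and pair nothing. The scripts were tested on simulated data.

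The members and gene lists were chosen with earlier results of these data known. Named genes were up to 6 per direction of smallest p (4 for time and sex), up to 4 of highest signal per list, and 10 known from earlier results (Fkbp5, Mt1, Mt2, Gadd45g, Errfi1, Inmt, Lrg1, Hp, Cdkn1a and Cebpd); other list members named were chosen after their values were seen. The count rule on arrays that do not overlap was also added after the data were seen. Alternatives were pseudocount, filter, quantile normalization, mean of probe sets, eBayes settings, array weights, covariates, a fit over all times and each array left out.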

Additional observations from a re-analysis of the deposited data

Results flagged for a closer look

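In 116 sets of 4 arrays, the vehicle or the late arrays for 54 named genes and 4 marker lists, the value farthest from the rest was set against the group's range with Dixon's rule, by which chance marks about 1 in 20; 11 were marked. Male vehicle replicate 2 was the array in 7 of them. It had the lowest vehicle signal of Hp (525.2, the others 10712 to 12921), Fasn (1514, the others 15589 to 21861), Lrg1 (713.9, the others 2615 to 3162), Slc3a2 (850.4), Tuba1c (2618) and Dnm1 (792.7), and the highest of Mef2c (2382, the others 149.0 to 161.9). Male vehicle replicate 1 had the highest vehicle signal of Ucp1 (350.0, the others 35.76 to 51.90) and the lowest of Nup107 (117.6). Female vehicle replicate 2 had the lowest of Clip3 (90.40), and the female 18 h array the lowest late signal of Apod (65.66, the others 280.4 to 323.4).

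For 8 of the named genes every late array lay on 1 side of vehicle in males and on the opposite side in females, with 7 arrays. Of these, 2210010C04Rik read 20166 on the pancreas-rich female 12 h array. It read 1911 and 1915 on the female vehicle arrays and 994.5 and 549.3 in late females. The mean log2 level of the pancreas markers on these arrays was 9.63 and 9.17, and 9.05 and 8.19, and its part was not tested. The female minus male difference was 2.75 for Acvr1b, 3.16 for Chst3, 2.73 for Mef2c, 1.78 for Cyp2f2, 1.07 for Gdap10, -1.94 for 2210010C04Rik, -2.20 for Gtse1 and -2.79 for Mmp9 (log2). None passed limma's interaction test (adjusted p = 1.00 for each), only 1 male vehicle array stands behind each male value, and 7 of the 8 were named for a small interaction p.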

How the results depend on the processing

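The main counts of 0 stayed 0 under most alternatives, and none of the genes of smallest p or known from earlier results changed sign in its own comparison under any. Several abundant list genes did when the muscle-rich array was left out, among them Orm1 (1.09 to -0.07), Hsd17b12 (0.63 to -0.20), Lipe (1.10 to -0.07) and Pnpla2 (0.62 to -0.03). The Scd1 difference between the late and the 6 and 12 h arrays fell as low as 0 under the alternatives. Array weights gave 2 calls with 8 arrays (Mt2 and Fkbp5), 61 with 7 and 1 against 6 and 12 h (Pcp2); with 7 arrays they gave the lone male vehicle array a weight of 9.86. The fit of all times gave the 5 calls named above with the muscle-rich array left out. Against 1 and 3 h, a filter at the 60th percentile, quantile normalization and the mean of all probe sets each gave 1 call, Lrg1. The sex difference without a filter gave 1 (Prol1). Leaving out each array in turn gave 0 to 1 calls against 6 and 12 h, 0 to 27 against 1 and 3 h (27 without male DHT 3h) and 0 to 3 for 24 against 18 h (3 without male DHT 18h, 1 without male DHT 24h). The causes were not tested.

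The counts of genes with arrays that do not overlap, chosen after seeing the data, grow by construction with fewer arrays: leaving out each in turn gave 229 to 502 higher and 160 to 435 lower with 8 arrays, and 337 to 785 and 345 to 875 with 7. Without a filter 412 were higher with 7 arrays, and 166 with the 60th percentile.

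List medians moved by more than the spread between arrays for 21 of 41 lists when the muscle-rich array was left out. The medians of lipolysis, fatty acid oxidation, brown and beige adipocyte, circadian clock, unfolded protein, interferon, imprinted and endothelial genes changed sign. With 7 arrays and each alternative, Mt2 ranged from 1.27 to 1.57 and its limma adjusted p from 3.966e-04 to 0.774. The female 12 h array is not among the arrays of the comparison with 1 and 3 h, and the sex difference could not be fitted without male vehicle replicate 1. No paired analysis was possible because the labels give no replicate numbers that pair samples. With dim genes, background limits the differences that can be seen.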

Other observations

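Counts here are for 7 arrays, with which 4.45% of all genes were higher in each sex and 4.43% lower. Of 11 genes of steroid metabolism 3 were higher (27.3%), Hsd11b1, Aldh1a1 and Rdh11 (0.16 ± 0.15), a retinal reductase, and 1 lower (9.09%), Sult1a1 (-0.52 ± 0.18), a sulfotransferase, with a list median of 0.05. Of 15 steroid receptor, chaperone and cofactor genes 3 were higher (20.0%), Fkbp5, Stub1 and Ncoa1, and 1 lower (6.67%), Fkbp4, the sister co-chaperone of Fkbp5 (-0.18 ± 0.14), with a list median of 0.03. Agt, which encodes angiotensinogen, was higher in each sex by 0.48 ± 0.17, reading 2751 and 2390 in late males and 1281 and 1782 in late females against 1985 and 304.6, and 947.5 and 1101, in vehicle. The adipokine genes Lep (-0.15 ± 0.27), Retn (0.10 ± 0.15) and Adipoq (0.16 ± 0.13) lay near vehicle with 7 arrays. Chemokine and receptor genes (1 of 21 higher, 4.76%) and cell cycle genes (1 of 32 higher and 1 lower, 3.12% each) lay near the shares of all genes. Genes of the tricarboxylic acid cycle (0 of 18) and glycolysis (0 of 20) had none in either direction. Of 10 exocrine pancreas markers 2 were lower (20.0%), Cel and Clps, and 0 higher. That list had a median of -0.39, with 0.11 in males and -0.86 in females. These lists, too, were chosen with earlier results known.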
